A study of Mus musculus with 20 samples.

Results

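The lysosome is described here through 51 genes, of 16810 in the table, that encode its proton pump and a set of its enzymes and membrane proteins. The members were chosen by name and not by a threshold on their values, though earlier results of these data were known when they were chosen. They are the 23 genes whose symbols begin with Atp6v or Atp6ap, which encode subunits and accessory proteins of the vacuolar proton pump, and 28 further genes listed by symbol. The 28 comprise 8 membrane proteins, 8 glycosidases, 3 sulfatases, 6 genes of lipid handling, and 3 genes grouped as proteases and progranulin.

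Lysosomes are acidic compartments in which cells break down proteins, sugars and lipids that they have taken up or no longer need. The vacuolar ATPase acidifies them. Its V1 sector, in the cytosol, hydrolyses ATP, and its V0 sector, in the membrane, passes protons into the lumen, where the acid hydrolases work best. Microglia, the resident macrophages of brain and spinal cord, take up debris by phagocytosis and depend on this pathway. Loss of single lysosomal enzymes causes storage diseases, many of which affect the nervous system. Many lysosomal genes carry in their promoters an E-box that transcription factors of the MiT/TFE family, such as TFEB, can bind.

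RNA was measured in eGFP-high cells sorted by flow cytometry from the spinal cord of adult heterozygous CX3CR1+/eGFP mice on a C57BL/6 background, in which enhanced green fluorescent protein marks microglia and also peripheral monocytes. All 20 samples carry this allele. There were 3 samples from non-injured (NI) mice, and samples taken 72 h, 1 week and 2 weeks after a lateral hemisection (HS; 3, 2 and 3 samples) or a full transection (FT; 3 samples at each time) of the thoracic cord. The authors name a low level of infiltrating macrophages among the sorted cells as possible. By the study's methods more mice than libraries were used, so a library may pool several mice. The labels do not tie a library to its animals, and p-values then measure the spread between these libraries. The values are read counts normalised by library size (CPM, the unit of the deposited table). Fewer cells of a type and less RNA per cell cannot be told apart in such samples.

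Sequencing depth ran from 3.87 to 34.1 M reads per sample. The normalised columns summed to between 777426 and 830481 in NI and to between 878070 and 1.20219e+06 in the 17 injured samples, so the scaling of columns bears on every comparison with NI. FT 1 week replicate 1 stood farthest from its group: its spread from its fellow samples was 112 and 110.9 times the sampling noise, against 49.45 times between these. All 10 microglial markers were detected, with a summed level between 20309 and 24145 CPM in NI and between 15709 and 30074 CPM in the injured groups. Astrocyte markers summed to 282 to 478 CPM in NI, against 110 to 265 CPM in injured samples, and border macrophage markers to 161 to 168 CPM, against 33.1 to 150 CPM. Summed monocyte markers were 75.5 to 78.4 CPM in NI, 125 to 193 CPM at 72 h after HS and 137 to 443 CPM at 72 h after FT. At 2 weeks they were 54.1 to 78.4 CPM after HS and 46.1 to 61.8 CPM after FT. The part of these other cells in the lysosomal values was not tested.

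All lysosomal genes that met the criterion for a change after injury were higher by limma. A gene was called differentially expressed (DE) where its adjusted p was under 0.05 and it changed at least 2-fold. At 72 h, 17 genes were DE and higher after HS, against 9.08% of all genes tested, and 14 after FT, against 8.14%. At 1 week the counts were 3 after HS, against 1.7% of all genes, and 11 after FT, against 2.86%. At 2 weeks 11 genes were higher after HS, against 2.43% of all genes, and 11 after FT, against 3.53%. None of the 51 was DE and lower by limma, where at 72 h, 1 week and 2 weeks 4.31, 0.482 and 0.797% of all genes were after HS and 4.09, 1.2 and 1.36% after FT. At an unadjusted p under 0.05, 4, 2 and 3 of the 51 were lower after HS and 2, 1 and 2 after FT. The edgeR quasi-likelihood test called 0 to 1 of the 51 lower in a comparison and DESeq2 also 0 to 1, Atp6v0e2 in all but 1 case. The edgeR likelihood ratio test called Atp6v0a4 and Atp6v1g3 lower at 72 h after HS, Atp6v0a4 at 72 h after FT and Atp6v0e2 at 1 and 2 weeks after FT. Of the 51 genes, 19 were DE in at least 1 of the 6 comparisons, 32 were DE in none, and 23 did not reach an adjusted p under 0.05 in any. Single libraries moved some counts: 11 genes were called at 72 h after HS without HS 72 h replicate 2, 1 at 1 week after HS without HS 1 week replicate 1, and at 1 week after FT 6 without replicate 3 and 14 without replicate 1.

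**Figure D1:**
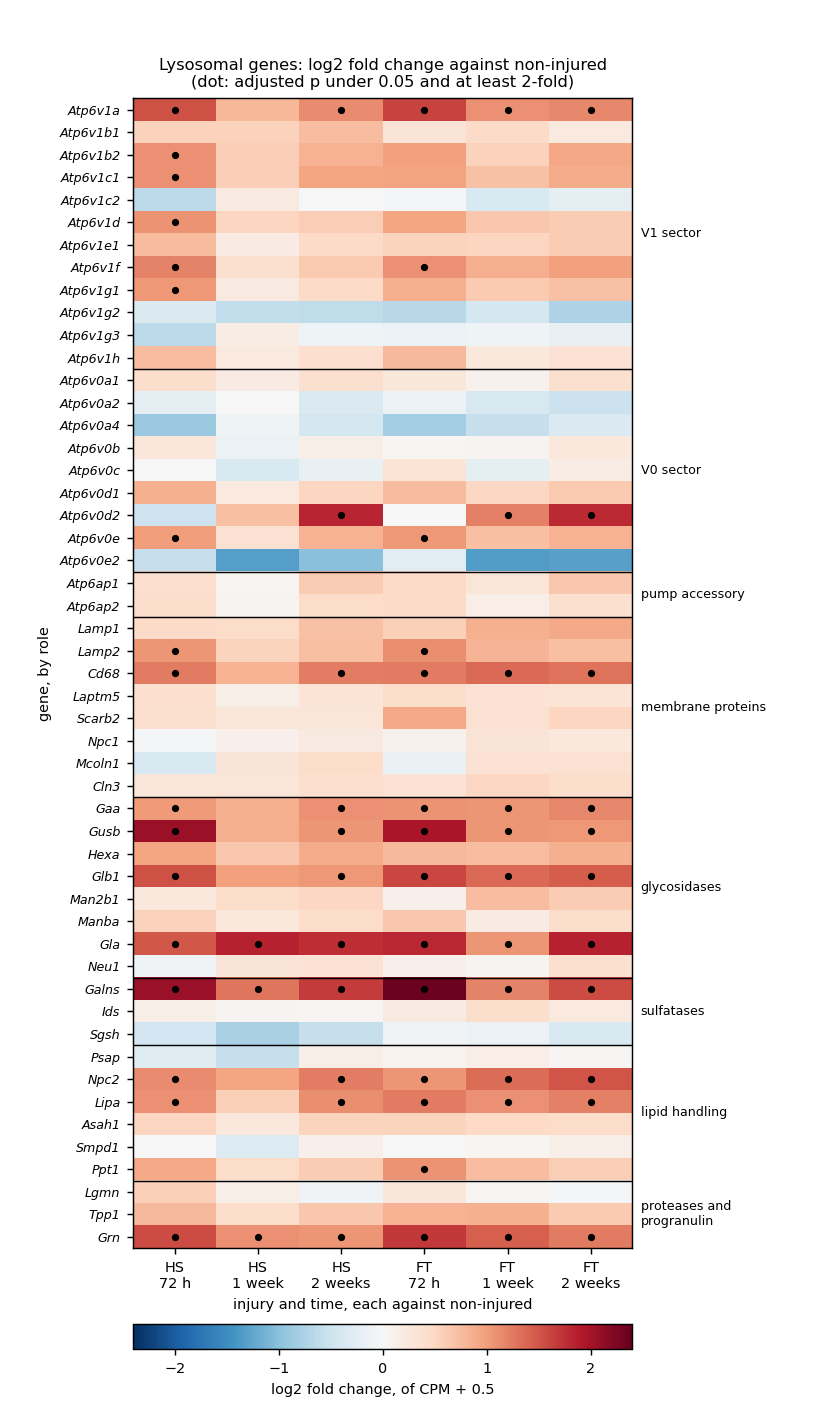
Log2 fold change against NI (colour, on the log2 scale of CPM + 0.5) of each lysosomal gene (vertical axis, grouped by role) at 3 times after HS and FT (horizontal axis). Dots mark DE genes, in order of time 17, 3 and 11 with HS and 14, 11 and 11 with FT. The dots lie mainly on Atp6v1a, Cd68, the glycosidases Gaa, Gusb, Glb1 and Gla, and Galns, Npc2, Lipa and Grn.

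The median gene of the 51 was also above the median of all genes in each comparison. After HS its log2 fold change was 0.55, 0.29 and 0.50 in order of time, with -0.11, 0.02 and -0.01 for the median over all genes. For FT the corresponding values were 0.54, 0.49 and 0.59, with -0.09, -0.03 and -0.02 over all genes. The 51 genes together held 2.68 to 2.97% of the normalised reads in NI and 2.71 to 3.92% in the injured samples. Of the injured samples FT 1 week replicate 1, at 2.71%, lay within the NI range.

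Without the fold limit, and in order of time, 22, 6 and 15 genes were higher with HS, against 16.4, 2.07 and 3.84% of all genes, and 25, 17 and 19 with FT, against 14.8, 5.11 and 6.21%. Atp6v0a4, the a subunit isoform of kidney, was then the single gene that was lower, at 72 h after HS (log2 fold change -0.90 ± 0.32, SE). It was near the limit of detection, at no more than 2.19 CPM in any sample.

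These counts depended on how the columns were scaled. When every column was scaled to the same total, the median over all genes moved to -0.52 (log2) at 72 h after HS and -0.48 at 72 h after FT, and the share of DE genes that were higher fell from 67.8 to 16.2% and from 66.5 to 18.5%. Of the 51 lysosomal genes, 5 were then DE and higher and 2 DE and lower at 72 h after HS, and 6 and 2 at 72 h after FT. The median of the 51 lay above that of all genes, by 0.20 to 0.73 on the log2 scale over all 12 ways of processing and all 6 comparisons. Scaling whole columns moves both medians nearly alike, so scaling to 1 total and median of ratios could hardly change this difference. Quantile normalization could, and under it the difference was 0.20 to 0.34, against 0.26 to 0.66 on the deposited scale. The calls of single genes that these scalings ended are given with each gene.

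**Figure D2:**
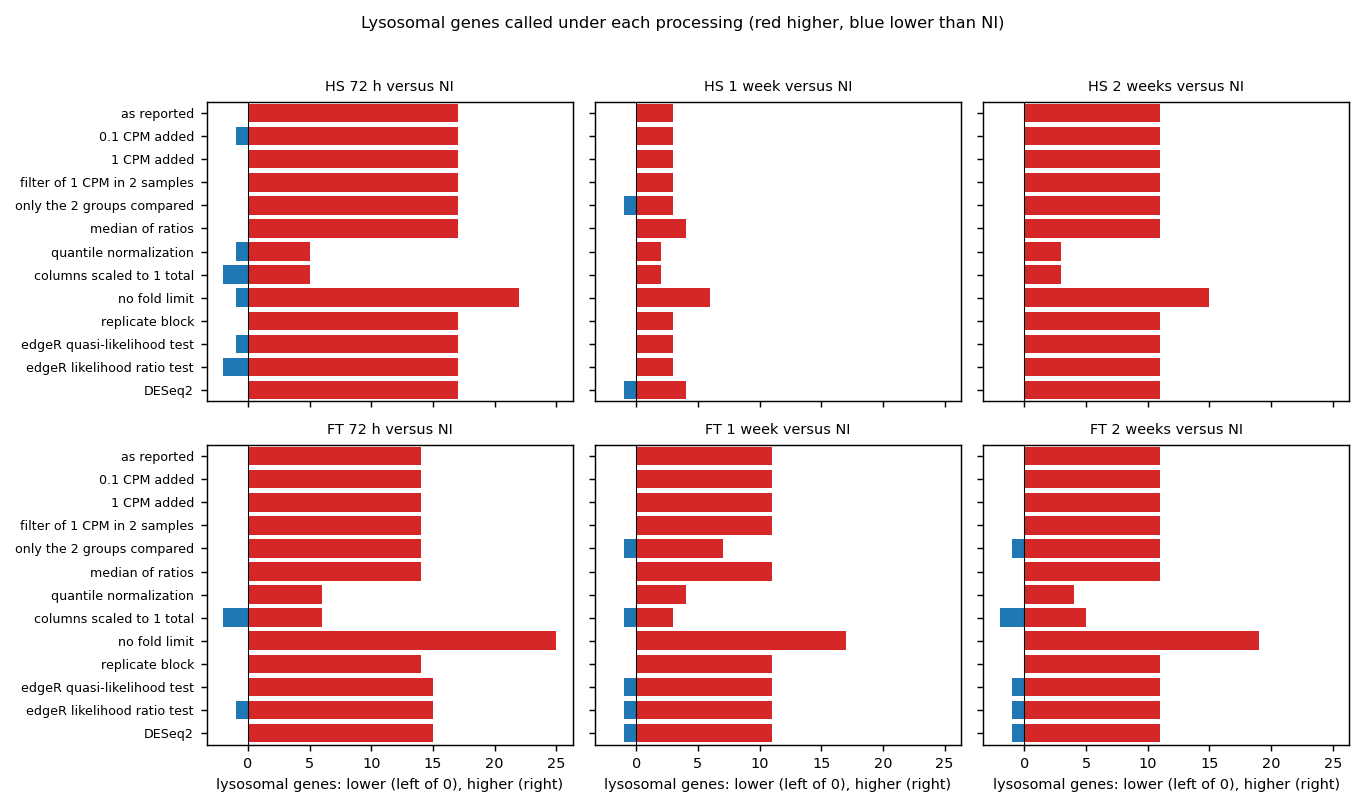
Number of the 51 lysosomal genes that were DE and higher (red, right of 0) or lower (blue, left of 0) than NI, in each comparison, under each way of processing the values (vertical axis). Quantile normalization and scaling to 1 total shorten the red bars most, from 17 to 5 at 72 h after HS and from 14 to 6 at 72 h after FT.

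The DE genes differed in how many comparisons they passed. Gla, Galns and Grn were DE in all 6 comparisons, as were 0.993% of all genes. Atp6v1a, Cd68, Gaa, Gusb, Glb1, Npc2 and Lipa were DE in 5, each missing the criterion at 1 week after HS, the group with 2 samples. Another 8 genes were DE at 72 h only, 6 of which encode pump subunits (Atp6v1b2, Atp6v1c1, Atp6v1d, Atp6v1f, Atp6v1g1 and Atp6v0e), the others being Lamp2 and Ppt1. These were not high at 72 h alone, since all but Atp6v1d and Lamp2 also passed the adjusted p in at least 1 later comparison, short of 2-fold. Atp6v0d2 alone was DE at the later times and not at 72 h. That a gene passed at 72 h and not later does not show a change between times, which was tested separately.

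Promoters of the members were searched for the E-box named above. The windows, from RefSeq on the GRCm38.p6 build, run from 250 bases before to 50 bases after a gene's RefSeq start, and 42 of the 51 genes had at least 1. That start can differ from the ends of the gene spans printed below, which are from GENCODE. The motif searched was CACGTG, which reads the same on both strands, and its extension TCACGTG on either strand, which contains it. The extension was present in 12 of the 42 genes (28.6%), against 6.22% of the 12260 genes of the table with a window and 3.77% of all 32851 windows. The same 12 held CACGTG, against 10.7% of the genes and 7.15% of the windows. Of these 12, 5 were DE in at least 1 comparison, and of the 30 without a match, 9. A match describes letters in a window and not a bound site. No window was at hand for Atp6v1b2, Atp6v1c1, Atp6v1g1, Atp6v1h, Atp6v0a2, Atp6v0d2, Npc1, Galns and Asah1.

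Stretches with the match are shown for the 5 DE genes that held it and for Lamp1, which held the most copies, to show how letters beside the E-box vary. Each reads 5′ to 3′ on the gene's strand, with the E-box and a flanking T before it or A after it in capitals. They lie at chr16:44139373-44139402 (minus strand), chr17:26676387-26676416 (plus), chr11:119267811-119267840 (plus), chr9:114401018-114401047 (plus), chrX:134601184-134601242 (minus) and chr8:13159090-13159161 (plus), in the order given.
Atp6v1a: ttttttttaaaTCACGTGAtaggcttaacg
Atp6v0e: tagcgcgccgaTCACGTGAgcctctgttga
Gaa: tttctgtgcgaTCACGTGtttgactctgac
Glb1: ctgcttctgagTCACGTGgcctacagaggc
Gla: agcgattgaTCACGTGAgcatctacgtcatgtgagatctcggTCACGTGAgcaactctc
Lamp1: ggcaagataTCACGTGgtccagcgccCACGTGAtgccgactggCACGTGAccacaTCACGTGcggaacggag
Counted from the RefSeq start, the E-box began 131 bases before the start of Atp6v1a, 140 before that of Gaa and 48 before that of Glb1. The GENCODE span printed below for Atp6v1a runs past this start, so the stretch of Atp6v1a lies inside that span. The E-box lay inside the transcript, at base 4, in Atp6v0e. Gla held 2 E-boxes, 227 and 194 bases before the start, and Lamp1 held 4, all within 61 bases of it.

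Grn, DE in all 6 comparisons, held no match, and its window at chr11:102430257-102430556 (plus strand) is given for contrast with that of Gla.
Grn: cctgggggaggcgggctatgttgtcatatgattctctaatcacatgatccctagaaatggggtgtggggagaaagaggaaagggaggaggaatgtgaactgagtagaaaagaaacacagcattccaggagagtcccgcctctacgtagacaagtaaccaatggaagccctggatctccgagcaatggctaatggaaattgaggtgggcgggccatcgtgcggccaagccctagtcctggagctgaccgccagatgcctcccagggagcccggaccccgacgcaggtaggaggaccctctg
The window has no CACGTG, which says only that these letters are not in it. It is placed by the RefSeq start, and the GENCODE start printed below for Grn lies inside it. Atp6v0b, Atp6v0d1, Mcoln1, Cln3, Sgsh and Lgmn held the extended E-box and were DE in none of the 6 comparisons.

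The V1 sector of the pump, which holds the ATPase, had its highest mean summed level at 72 h after each injury. None of its genes was DE between times. Its 12 genes summed to 897 to 1018 CPM in NI, to 1820 to 2221 CPM at 72 h after HS and to 1811 to 2007 CPM at 72 h after FT, and those ranges did not overlap that of NI. At 1 and 2 weeks the sums were 1267 to 1293 and 1484 to 1579 CPM after HS. After FT they were 1170 to 1905 and 1551 to 1732 CPM, and all of these later ranges also lay above NI. Of the 12, 6 were DE and higher at 72 h after HS, against 9.08% of all genes, and 2 at 72 h after FT, against 8.14%. In each, 8 passed the adjusted p, against 16.4 and 14.8% of all genes. At 1 week 0 were DE after HS and 1 after FT, against 1.7 and 2.86% of all genes. At 2 weeks 1 was DE after each injury, against 2.43% with HS and 3.53% with FT.

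Atp6v1a, which encodes the catalytic A subunit (chr16:44085402-44139705), gave the largest rise of the sector. It stood at 106, 86.4 and 91.9 CPM in NI. At 72 h it reached 273, 290 and 258 CPM after HS and 291, 305 and 275 CPM after FT. Every 72 h sample was above every NI sample, a log2 fold change of 1.53 ± 0.21 (SE) after HS (limma, adjusted p = 1.8e-05) and of 1.61 ± 0.21 after FT (limma, adjusted p = 1.05e-05). It was 176 and 155 CPM at 1 week and 200, 242 and 189 CPM at 2 weeks after HS. After FT it was 127, 256 and 258 CPM at 1 week and 245, 179 and 215 CPM at 2 weeks. The low 1 week value came from FT 1 week replicate 1, and still exceeded all NI samples. The calls at 72 h held under every alternative, and those at 1 and 2 weeks ended under quantile normalization and scaling to 1 total. The call at 1 week after FT also ended without FT 1 week replicate 2 or 3 (log2 fold change 0.94 and 0.93) and in a fit of the 2 groups alone.

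The other V1 subunits of broad expression moved less. At 72 h after HS the log2 fold changes of the DE genes were 1.09 for Atp6v1b2, the B subunit, 1.10 for Atp6v1c1, 1.08 for Atp6v1d, 1.20 for Atp6v1f and 1.05 for Atp6v1g1, which encode subunits of the stalks that join the sectors. After FT these were 0.98, 0.97, 0.95, 1.09 and 0.87, each past the adjusted p, with only Atp6v1f past 2-fold as well. Atp6v1e1 (0.77 and 0.53) and Atp6v1h (0.74 and 0.78) passed the adjusted p at 72 h after HS and FT without reaching 2-fold. All 5 DE calls of this set after HS ended under quantile normalization and scaling to 1 total. Single libraries ended those of Atp6v1b2 (0.96 without NI replicate 3), Atp6v1d (0.98 without HS 72 h replicate 2) and Atp6v1g1 (0.98 to 0.99 without HS 72 h replicate 1 or 2 or NI replicate 2), and that of Atp6v1f after FT (0.95 without FT 72 h replicate 2).

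The isoforms known from kidney and other specialised tissues were scarce. Atp6v1b1, Atp6v1c2 and Atp6v1g3 were at no more than 1.32, 1.75 and 1.07 CPM in any sample, and Atp6v1g2, an isoform of neurons, at 2.06 to 5.3 CPM. Per kilobase of exon, the mean NI level of Atp6v1g1 was 207 CPM, against 1.99 CPM for Atp6v1g2 and 0.37 CPM for Atp6v1g3. By limma on the deposited scale these 4 genes passed in 0 of the 6 comparisons. Their log2 fold changes ran from -0.74 to 0.74. With columns scaled to 1 total Atp6v1g2 was DE and lower at 72 h and 2 weeks after FT (-1.09 and -1.10). The edgeR quasi-likelihood and likelihood ratio tests called Atp6v1g3 lower at 72 h after HS (-1.37 and -1.36).

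The V0 sector, which forms the proton channel, had 0 or 1 of its 9 genes DE in each comparison with NI. Its 9 genes summed to 907 to 1034 CPM in NI, to 1224 to 1596 CPM at 72 h after HS and to 1122 to 1358 CPM at 72 h after FT. As shares of the column total these 72 h sums overlapped those of NI after both injuries. Of the 9, 1 was DE in 5 of the 6 comparisons, Atp6v0e at 72 h and Atp6v0d2 later, and 0 at 1 week after HS. At 72 h these counts were near the share of all genes that were DE and higher, 9.08% after HS and 8.14% after FT. At 1 and 2 weeks that share was 1.7 and 2.43% after HS and 2.86 and 3.53% after FT. Atp6v0e, the broadly expressed small e subunit, was DE at 72 h (log2 fold change 1.00 ± 0.23 after HS and 1.04 ± 0.23 after FT), calls that quantile normalization and scaling to 1 total ended. They also ended without NI replicate 2 (0.89 and 0.92) and without replicate 2 of the injured group (0.84 and 0.74). Atp6v0d1, the broadly expressed d subunit, passed the adjusted p at 72 h after both injuries (0.86 and 0.76) and at 2 weeks after FT (0.63) without reaching 2-fold. Atp6v0b, by the listed values the most abundant V0 gene per kilobase, ranged from 433 to 836 CPM over the samples, with log2 fold changes between -0.14 and 0.30 and no call.

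Atp6v0d2 (chr4:19876841-19922605), the d subunit isoform known from osteoclasts and macrophages, had the largest fold change of the pump and the latest. It was 1.61, 1.29 and 0.767 CPM in NI, 1.22, 0.565 and 0.41 CPM at 72 h after HS, and 1.25, 1.17 and 1.16 CPM at 72 h after FT. The 72 h samples overlapped those of NI. It was 2.18 and 2.41 CPM at 1 week and 5.3, 7.05 and 4.35 CPM at 2 weeks after HS, and 3.04, 2.79 and 4.57 CPM at 1 week and 3.46, 6.53 and 6.49 CPM at 2 weeks after FT. All samples from 1 week on were above all NI samples. The log2 fold change was 1.83 ± 0.30 at 2 weeks after HS (limma, adjusted p = 0.00051) and 1.78 ± 0.30 at 2 weeks after FT (limma, adjusted p = 0.000408), and both calls held under every alternative. It was 1.21 ± 0.30 at 1 week after FT, a call that ended without NI replicate 3 (1.00), without FT 1 week replicate 3 (1.02), in a fit of these 2 groups alone and with columns scaled to 1 total, and 0.73 ± 0.34 at 1 week after HS, which did not pass. These are low levels: per kilobase of exon the mean NI level was 0.45 CPM, against 37.6 CPM for Atp6v0d1.

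Atp6v0e2, an e subunit isoform of neural tissue (chr6:48537615-48541801), had the lowest log2 fold change of the members by limma, without a call. Its values are given because other tools called it. It was 18.4, 13.1 and 9.98 CPM in NI. After HS it was 14, 8.76 and 5.95 CPM, then 5.58 and 4.57 CPM, then 2.65, 10.7 and 9.18 CPM in order of time, and with FT 7.99, 13.7 and 12.6 CPM, then 4.37, 4.49 and 6.47 CPM, then 2.9, 8.18 and 5.5 CPM. All samples at 1 week after either injury and at 2 weeks after FT were under all NI samples. With FT the log2 fold change was -1.33 ± 0.41 at 1 week (limma, adjusted p = 0.0552) and -1.31 ± 0.41 at 2 weeks (limma, adjusted p = 0.0545), so it missed the criterion. It met it at both times by the edgeR quasi-likelihood test (adjusted p = 0.0293 and 0.0439), by DESeq2 (0.00697 and 0.0141) by the edgeR likelihood ratio test, in fits of the 2 groups alone and with columns scaled to 1 total. At 1 week after HS, where limma gave -1.33 ± 0.46 (adjusted p = 0.158), it met the criterion by DESeq2 (-1.44; adjusted p = 0.0462) and in the fit of the 2 groups alone (adjusted p = 0.00585). At 72 h after HS it met it with columns scaled to 1 total (-1.04). Neuronal markers were also lower, 4 and 3 of 9 being DE and lower at 1 and 2 weeks after FT, with 0 at 1 week after HS, and their part in this value was not tested.

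The remaining V0 genes did not pass in any comparison, apart from Atp6v0a4 above. Atp6v0a1 and Atp6v0a2, isoforms of the a subunit, had log2 fold changes of 0.09 to 0.42 and -0.52 to 0.01. Atp6v0c, the proteolipid of the ring, was listed at 0 to 1.75 CPM, and processed copies of it are annotated in the mouse genome, so reads may have been split or dropped and its values are uncertain. The accessory proteins Atp6ap1 and Atp6ap2 had log2 fold changes of 0.05 to 0.65, with no call.

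Among the 8 lysosomal membrane proteins, Cd68 and Lamp2 were DE. Cd68 (chr11:69664213-69666153), a glycoprotein of macrophage lysosomes, was 831, 745 and 921 CPM in NI. At 72 h it was 1791, 2646 and 1601 CPM after HS and 1852, 2227 and 1879 CPM after FT. At 1 week it was 1340 and 1614 CPM after HS and 1754, 1967 and 2803 CPM after FT, and at 2 weeks 1999, 1902 and 1920 CPM after HS and 2229, 1822 and 2136 CPM after FT. Every injured sample exceeded every NI sample. The log2 fold change ran from 1.23 to 1.36 (SE 0.22) in the 5 comparisons in which it was DE and was 0.83 ± 0.25 at 1 week after HS (limma, adjusted p = 0.0896). Quantile normalization ended all 5 calls, and scaling to 1 total all but that at 1 week after FT.

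Lamp1 and Lamp2 are the most abundant glycoproteins of the lysosomal membrane and shield it from the hydrolases. Lamp1 (chr8:13159161-13175338) was 400, 423 and 436 CPM in NI. It was 569, 528 and 633 CPM at 72 h, 542 and 604 CPM at 1 week and 723, 546 and 804 CPM at 2 weeks after HS, and 559, 616 and 694, then 895, 710 and 682, then 762, 858 and 743 CPM at these times after FT. In CPM all 17 injured samples were above the NI samples, but the change stayed under 2-fold. The NI columns had the lowest totals, and as shares of the column total the 72 h samples after both injuries overlapped NI. By that share HS 2 weeks replicate 2 also lay within the NI range. Lamp1 passed the adjusted p at 2 weeks after HS (log2 fold change 0.70 ± 0.18) and at all 3 times after FT (0.57, 0.85 and 0.91, SE 0.18), and did not at 72 h and 1 week after HS (0.46 and 0.45).

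Lamp2 (chrX:38401357-38456454) was 717, 523 and 520 CPM in NI. It was 1141, 1439 and 1085 CPM at 72 h after HS and 1097, 1406 and 1302 CPM at 72 h after FT, where it was DE (log2 fold changes 1.06 and 1.12, SE 0.29). At 1 week it was 902 and 786 CPM after HS and 511, 1360 and 1501 CPM after FT, and at 2 weeks 967, 1139 and 783 CPM and 1141, 860 and 887 CPM, without a call. The lowest of these, 511 CPM in FT 1 week replicate 1, lay under all NI samples. Quantile normalization and scaling to 1 total ended both calls, and the call after HS also ended without HS 72 h replicate 2 (0.94) or NI replicate 2 or 3 (0.99 and 0.98).

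None of the other membrane proteins was DE. Laptm5, a transporter-like protein of blood cell lysosomes and the second most abundant member per kilobase in NI (1148 CPM per kilobase), had log2 fold changes of 0.13 to 0.43. Scarb2, the sorting receptor of glucocerebrosidase, passed the adjusted p at 72 h after FT (0.92 ± 0.21). Npc1, which exports cholesterol (-0.04 to 0.30), Mcoln1, a calcium channel (-0.38 to 0.44), and Cln3, mutated in juvenile Batten disease (0.28 to 0.50), did not pass in any comparison.

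The glycosidases, which trim sugars from glycoproteins, glycolipids and glycogen, were the role with the most calls over the 6 comparisons together. At 72 h after HS alone the V1 sector had more. Of the 8 glycosidase genes 4 were DE and higher in 5 of the 6 comparisons and 1 at 1 week after HS. In order of time the shares of all genes were 9.08, 1.7 and 2.43% with HS and 8.14, 2.86 and 3.53% with FT. The summed level of the glycosidases, 2082 to 2808 CPM in NI, was 3091 to 5401 CPM after injury, without overlap in CPM. As shares of the column total, FT 72 h replicate 2 and HS 2 weeks replicate 2 lay within the NI range. Gusb, which encodes beta-glucuronidase (chr5:129989011-130003049), was 276, 234 and 222 CPM in NI. At 72 h it was 1013, 1088 and 966 CPM after HS and 1146, 648 and 1133 CPM after FT. The log2 fold change was 2.07 ± 0.24 with HS (limma, adjusted p = 1.46e-06) and 1.96 ± 0.24 with FT (limma, adjusted p = 3.44e-06). Both calls held under every alternative. At 1 week it was 463 and 424 CPM after HS and 332, 600 and 644 CPM after FT, and at 2 weeks 551, 460 and 516 CPM and 576, 486 and 444 CPM. All of these were above NI and under the 72 h samples of their own injury. The later calls (log2 fold changes 1.06 at 2 weeks after HS, and 1.05 and 1.04 at 1 and 2 weeks after FT) ended under quantile normalization, under scaling to 1 total and without NI replicate 3 (1.00, 0.99 and 0.97). Those after FT also ended without FT 1 week replicate 2 or 3 (0.93 and 0.88) and without FT 2 weeks replicate 1 (0.94). A fit of the 2 groups alone ended the call at 1 week after FT as well.

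Gla, which encodes alpha-galactosidase A (chrX:134588149-134601125), was 15.3, 16.7 and 17.2 CPM in NI. After HS it was 39.6, 68.3 and 37.5 CPM at 72 h, 46.3 and 77.9 CPM at 1 week and 52.2, 62.9 and 56.5 CPM at 2 weeks. With FT it was 69, 65.7 and 45.1 CPM, then 47.2, 25.2 and 34.9 CPM, then 49.5, 70.3 and 62.5 CPM. Every injured sample exceeded NI, and the log2 fold change was 1.48 to 1.84 in 5 comparisons and 1.06 at 1 week after FT. It was the single glycosidase gene DE at 1 week after HS (1.84 ± 0.28; limma, adjusted p = 0.000414). Gla was DE under every alternative at 1 and 2 weeks after HS and at 72 h and 2 weeks after FT. Scaling to 1 total ended the other calls, and the call at 1 week after FT also ended without FT 1 week replicate 1 (0.84).

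Glb1, the beta-galactosidase, and Gaa, the acid alpha-glucosidase that degrades glycogen, were DE in 5 comparisons and passed the adjusted p in all 6. In order of time, Glb1 had log2 fold changes of 1.52, 0.99 and 1.04 with HS and of 1.61, 1.36 and 1.45 with FT (SE 0.19 to 0.21). All of its calls except that at 2 weeks after HS held under every alternative, and that call ended under both scalings, without NI replicate 1 (0.99) and without HS 2 weeks replicate 3 (0.89). Gaa had 1.03, 0.86 and 1.09 with HS and 1.08, 1.05 and 1.16 with FT. Quantile normalization and scaling to 1 total ended all 5 calls of Gaa, which were near 2-fold. Single libraries ended 4 of them, with log2 values of 0.96 without HS 72 h replicate 2, 0.99 without NI replicate 3, 1.00 without HS 2 weeks replicate 1, 1.00 without FT 72 h replicate 3, and 0.93 and 0.94 without FT 1 week replicate 2 and replicate 3. Man2b1, an alpha-mannosidase, passed the adjusted p at 1 week after FT (0.74) and Manba, the beta-mannosidase, at 72 h after FT (0.65). Hexa, the hexosaminidase alpha subunit, had log2 fold changes of 0.66 to 0.95 with the larger SE of 0.39 to 0.44 and no call. Neu1, the sialidase, ranged from -0.09 to 0.39 without a call.

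Galns, a sulfatase that acts on keratan and chondroitin sulfate (chr8:122578242-122611463), gave the largest rise of all 51 genes. It was 18.8, 18.9 and 20.5 CPM in NI. After HS it was 95.5, 81.4 and 75 CPM at 72 h, 51.9 and 43.9 CPM at 1 week and 83.3, 46.8 and 65.8 CPM at 2 weeks. With FT it was 117, 82.4 and 109 CPM, then 30.1, 54 and 55.6 CPM, then 71.7, 49.5 and 55.8 CPM. No injured sample overlapped NI. The fold change was 4.22 at 72 h after HS (limma, adjusted p = 1.19e-06) and 5.13 at 72 h after FT (limma, adjusted p = 2.13e-07), and 2.28 to 3.22 later. The 72 h and 2 week calls held under every alternative. The call at 1 week after HS ended without HS 1 week replicate 1 (log2 fold change 1.16; limma, adjusted p = 0.126), and that at 1 week after FT with columns scaled to 1 total. Ids and Sgsh, the other sulfatases, which degrade heparan sulfate, did not pass in any comparison, with log2 fold changes of 0.05 to 0.42 and -0.77 to -0.08. At an unadjusted p under 0.05 Sgsh was lower at 72 h, 1 week and 2 weeks after HS.

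In lipid handling the cholesterol carrier and the acid lipase rose while prosaposin did not pass. Npc2 (chr12:84754562-84773152), a soluble protein that hands cholesterol to the membrane protein NPC1, was 1012, 882 and 967 CPM in NI. After HS it was 1805, 2661 and 1880 CPM at 72 h, 1715 and 1984 CPM at 1 week and 2091, 2186 and 2393 CPM at 2 weeks. In FT samples it was 1847, 2084 and 2049 CPM, then 1802, 2359 and 3340 CPM, then 2664, 2738 and 2702 CPM. All injured samples were above NI, with log2 fold changes of 1.06 to 1.50 (SE 0.22) where it was DE and 0.95 ± 0.25 at 1 week after HS. Quantile normalization ended all 5 calls and scaling to 1 total all but that at 2 weeks after FT. The call at 72 h after HS also ended without HS 72 h replicate 2 (0.95).

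Lipa, the lysosomal acid lipase, was DE in all but HS 1 week. Its log2 fold changes were, in order of time, 1.10, 0.57 and 1.11 with HS and 1.24, 1.10 and 1.21 with FT. Quantile normalization and scaling to 1 total ended all 5 calls. The call at 2 weeks after HS also ended without HS 2 weeks replicate 1 (0.99). That at 1 week after FT ended without FT 1 week replicate 2 or 3 (0.95 and 0.92) and in a fit of the 2 groups alone. Ppt1, a thioesterase, was DE at 72 h after FT (1.07 ± 0.21, but 0.99 without FT 72 h replicate 2, and no call under either scaling) and passed the adjusted p at 72 h after HS (0.91 ± 0.21). Psap (chr10:60277627-60302597), the precursor of the saposins that help sphingolipid hydrolases, was 2017, 2226 and 2319 CPM in NI. It was 1558, 1510 and 2419 CPM at 72 h, 1912 and 1169 CPM at 1 week and 2082, 2680 and 2475 CPM at 2 weeks after HS. It was 1880, 1827 and 3560 CPM, then 1699, 3914 and 2146 CPM, then 2570, 1741 and 2436 CPM after FT. The groups overlapped NI except at 1 week after HS, and its log2 fold changes of -0.55 to 0.15 did not pass. Quantile normalization made it DE and lower at 72 h after HS (-1.14). Asah1, the acid ceramidase (0.25 to 0.54), and Smpd1, the acid sphingomyelinase (-0.33 to 0.14), did not pass.

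Grn, which encodes progranulin (chr11:102430315-102437048), a secreted protein that is also cleaved to granulins in lysosomes, was 1766, 1571 and 1581 CPM in NI. After HS it was 4609, 5048 and 4840 CPM at 72 h, 3689 and 3291 CPM at 1 week and 3616, 2633 and 4202 CPM at 2 weeks. In FT samples it was 4907, 4871 and 6138 CPM, then 3053, 5454 and 5294 CPM, then 4603, 3848 and 3273 CPM. No injured sample overlapped NI. Its log2 fold change was 1.56 ± 0.26 and 1.69 ± 0.26 at 72 h after HS and FT, 1.44 and 1.24 at 1 and 2 weeks after FT, and 1.06 to 1.09 later after HS. The call at 1 week after HS (limma, adjusted p = 0.0424) ended when any 1 of the NI or HS 1 week samples was left out (1.01 to 1.17), that at 2 weeks after HS when NI replicate 2 or 3 or HS 2 weeks replicate 1 or 3 was (0.91 to 1.04), and the call at 72 h after FT held under every alternative. Quantile normalization ended the other 5, scaling to 1 total those at 1 and 2 weeks after HS and 2 weeks after FT, and the replicate block that at 1 week after HS (adjusted p = 0.0623). Tpp1, a tripeptidyl peptidase, passed the adjusted p at 72 h after HS (0.78) and at 72 h and 1 week after FT (0.84 and 0.85) without reaching 2-fold. Lgmn, an asparaginyl endopeptidase and the most abundant member per kilobase in NI (1857 CPM per kilobase), had log2 fold changes of -0.08 to 0.57 and no call.

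**Figure D3:**
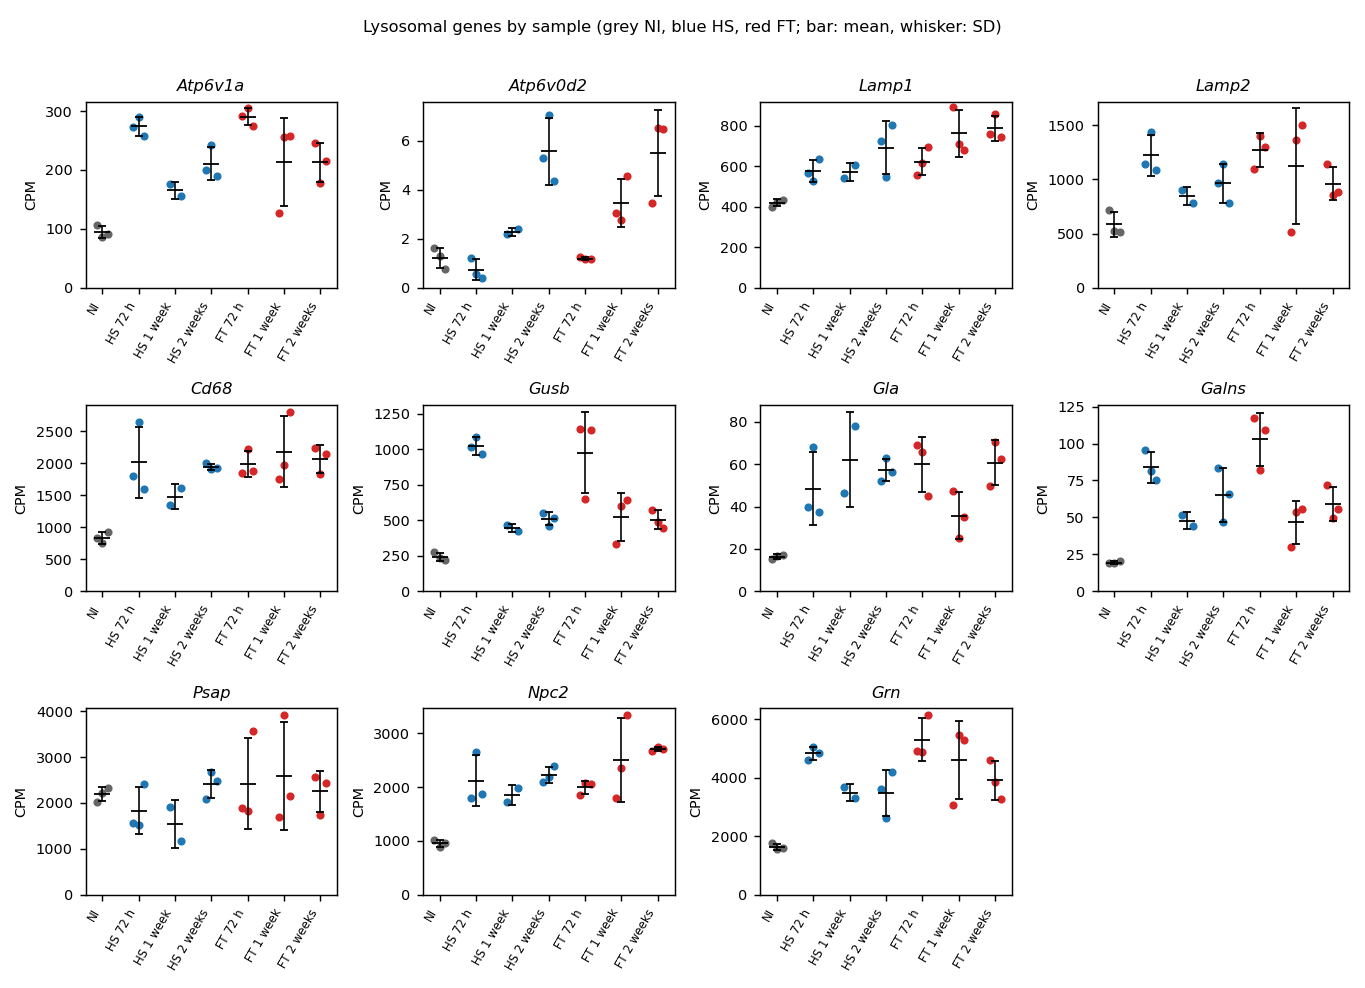
CPM (vertical axis, from 0) of 11 lysosomal genes in every sample (points) of the 7 groups (horizontal axis), with the group mean (bar) and SD (whisker). Galns, Gusb and Atp6v1a are highest at 72 h, Atp6v0d2 at 2 weeks, with 4.35 to 7.05 CPM after HS, and Psap overlaps NI in 5 of the 6 injured groups.

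Severity of the lesion was addressed by testing FT against HS at each time. No gene of the 51 was DE at 72 h, 1 week or 2 weeks by limma, as 0% of all genes were at each time, and edgeR and DESeq2 also called 0. At an unadjusted p under 0.05, 2, 5 and 1 of the 51 differed at 72 h, 1 week and 2 weeks, against 3, 4.31 and 2.61% of all genes. The largest differences were 0.60 for Atp6v1c2 at 72 h, -0.79 for Gla at 1 week and -0.51 for Atp6v1b1 at 2 weeks, on the log2 scale, FT minus HS. The median difference was 0.05, 0.21 and 0.02. The 95% interval of the difference lay within 2-fold for 44 of the 51 genes at 72 h, for 41 at 1 week and for 48 at 2 weeks. For the remaining genes a 2-fold difference was within the interval. The scale is log2(CPM + 0.5), which narrows the differences of genes near or under 1 CPM. For those genes an interval within 2-fold on this scale does not exclude a 2-fold difference in CPM.

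**Figure D4:**
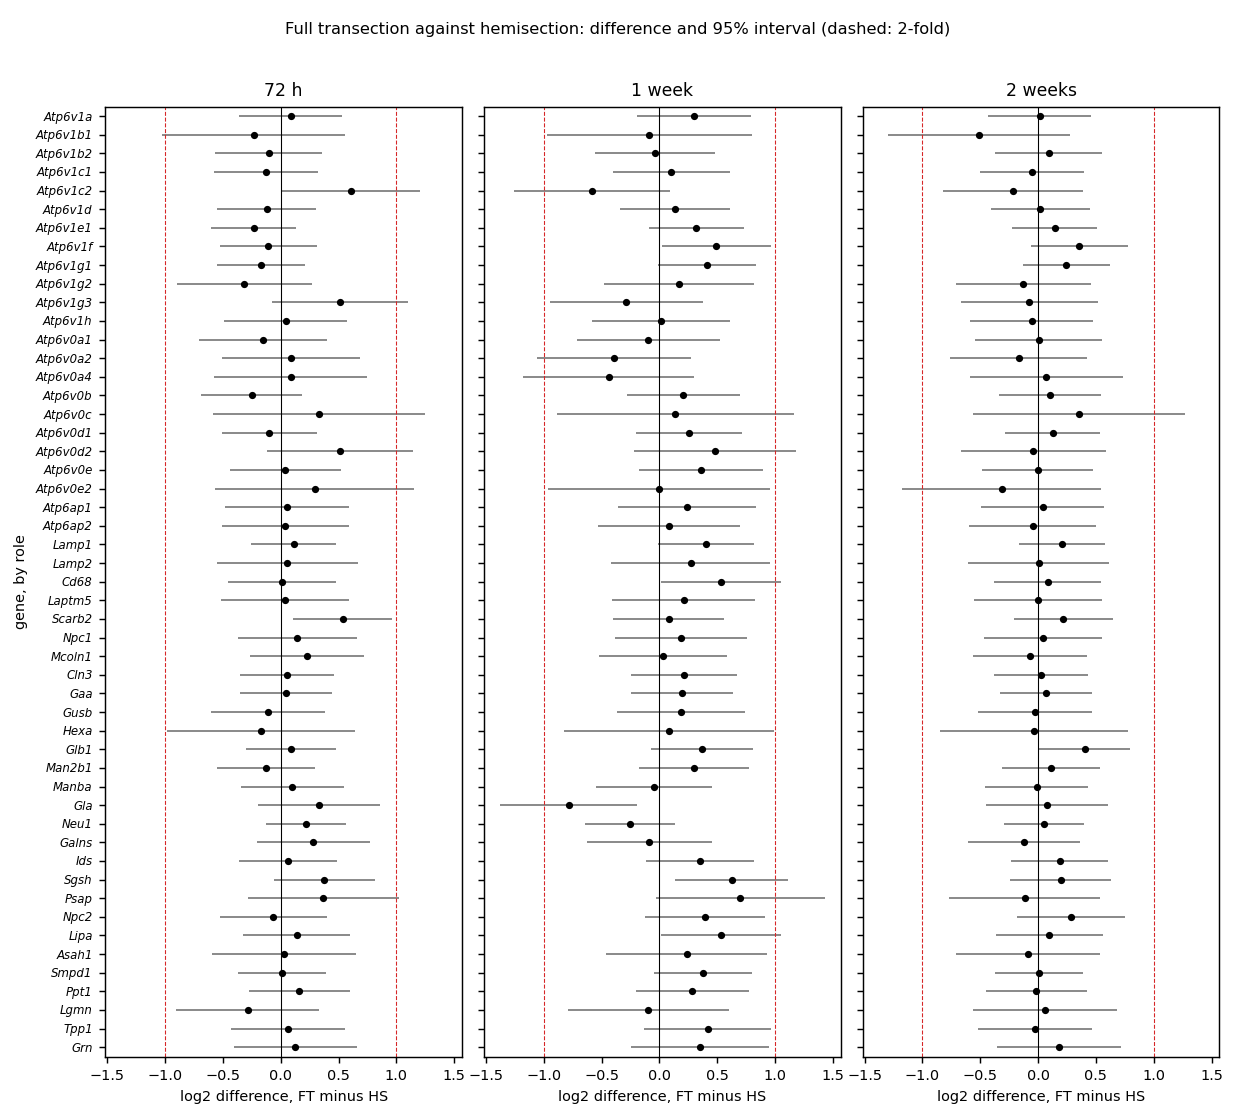
Log2 difference between FT and HS (points, FT minus HS) with its 95% interval (lines) for each lysosomal gene (vertical axis) at 72 h, 1 week and 2 weeks. Every point lies within 2-fold (dashed lines), and the interval does so for 44, 41 and 48 of the 51 genes.

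Between times, 0 to 2 of the 51 genes were DE, shares near or under those of all genes where 72 h was compared. Between 72 h and 1 week 2 of the 51 genes were DE after HS, against 6.03% of all genes, and 2 after FT, against 3.44%. Between 72 h and 2 weeks 2 were DE after HS, against 4.74%, and 1 after FT, against 3.81%. Between 1 and 2 weeks 0 were DE after HS, against 0.0119% of all genes, and 0 after FT, against 0.0714%, with 3 and 1 at an unadjusted p under 0.05. At that p, 17 and 10 of the 51 differed from 72 h at 1 and 2 weeks after HS, against 26.8 and 25.6% of all genes, and 9 and 8 after FT, against 19.9 and 19.5%. Atp6v0d2 was higher at 2 weeks than at 72 h after HS (log2 difference 2.33 ± 0.30; limma, adjusted p = 2e-05) and after FT (1.78 ± 0.30; limma, adjusted p = 0.000599), under every alternative. It was higher at 1 week than at 72 h by 1.23 ± 0.34 after HS and 1.20 ± 0.30 after FT, calls that ended under several alternatives. That after HS ended without HS 72 h replicate 2 or 3 (1.16 and 1.04), without either HS 1 week sample (1.29 and 1.17), with 1 CPM added, under quantile normalization and by DESeq2. That after FT ended without any 1 of the FT 72 h samples (1.19 to 1.23), without FT 1 week replicate 3 (1.01) and in a fit of the 2 groups alone. Gusb was lower at 1 week and 2 weeks than at 72 h after HS (-1.20 and -1.01), calls that both scalings ended. Without HS 1 week replicate 2 the first ended (-1.14), and without HS 72 h replicate 2 or HS 2 weeks replicate 2 the second (-0.96 and -0.94). After FT the differences were -0.90 and -0.92, past the adjusted p but not 2-fold. Galns was lower at 1 week than at 72 h after FT (-1.17 ± 0.23), a call that ended without FT 1 week replicate 1 (-0.89) and in a fit of the 2 groups alone.

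Other lysosomal genes that were DE were nearly all higher, but the lists differed. Of 79 genes in 5 further lists, 19, 6 and 15 were, in order of time, DE and higher with HS and 20, 15 and 18 with FT. Of all genes, 9.08, 1.7 and 2.43% were with HS and 8.14, 2.86 and 3.53% with FT. Of the 79 genes, 1 was DE and lower at 72 h after each injury, against 4.31 and 4.09% of all genes. Cathepsins, the proteases of the lysosome, were led by Ctsb, with a log2 fold change of 1.33 to 2.12, and 6, 2 and 5 of 11 were DE and higher after HS and 5, 5 and 5 after FT. Their summed level was 33790 to 39313 CPM in NI and 52082 to 103402 CPM after injury. Among 22 further hydrolases 6, 2 and 5 were higher after HS and 6, 4 and 4 after FT, with Acp5, the tartrate-resistant acid phosphatase of osteoclasts and macrophages, the largest (3.43 at 72 h after FT, from a mean of 1.20 CPM in NI). Of 21 other membrane proteins and transporters 2, 2 and 3 were higher after HS and 3, 4 and 4 after FT, led by the tetraspanin Cd63 (log2 fold change 1.89 to 2.53). The 2 of 21 at 72 h after HS were near the share of all genes. Tcirg1, the a subunit isoform whose symbol lies outside the Atp6v series and which was picked here after its values were seen, was DE and lower at 72 h after FT (-1.05) and passed the adjusted p at 72 h after HS (-0.88).

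Sorting and signalling genes were counted in the same way, against the same shares of all genes. At 72 h after HS the count of sorting genes was near that share, and at 1 week after HS both lists held 0. Of 12 genes that sort enzymes to the lysosome 1, 0 and 2 were higher after HS and 3, 1 and 3 after FT, the largest being Igf2r, a receptor for mannose phosphate (2.10 at 2 weeks after FT). Of 13 genes of mTORC1 docking and the MiT/TFE factors 4, 0 and 0 were higher after HS and 3, 1 and 2 after FT, led by Lamtor2, of the complex that holds mTORC1 at the lysosome (2.08 at 72 h after HS). Tfeb, Tfe3 and Mitf, named here for their link to the E-box and after their values were seen, had log2 fold changes of -0.74 to 0.06, -0.39 to 0.05 and -0.13 to 0.63 and no call. Tfec, of the same family, was at a mean of 0.45 CPM in NI and was DE and higher at 72 h after HS and FT (2.05 and 1.90).

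Markers of other cells moved in both directions. Among 8 monocyte markers 2 were DE and higher at 72 h after HS and 4 at 72 h after FT, and at 2 weeks 0 were higher and 1 lower after each injury. At 2 weeks, when 11 lysosomal genes were DE after each injury, the summed monocyte markers were 46.1 to 78.4 CPM in the 6 samples, against 75.5 to 78.4 CPM in NI. All 5 border macrophage markers were DE and lower at 2 weeks after both injuries, led by Lyve1 (-3.04 after HS). The astrocyte marker Atp1b2 (-3.91 at 2 weeks after FT), the neuronal marker Snap25 (-3.13 at 72 h after FT) and the endothelial marker Pecam1 (-1.52 at 1 week after HS) showed the largest falls of their lists. In order of time, 4, 4 and 5 of 7 astrocyte markers were DE and lower with HS and 1, 4 and 5 with FT, where 1 was higher at 72 h, and 3, 0 and 0 of 9 neuronal markers were lower with HS and 3, 4 and 3 with FT. Of 5 endothelial markers 1 was lower in 4 comparisons and Flt1 was higher at 2 weeks. Of 7 oligodendrocyte and 5 neutrophil markers 0 were DE in 6 and 5 of the 6 comparisons, with 1 neutrophil marker lower at 72 h after HS. Of the 10 microglial markers Tmem119 was DE and lower at 72 h after both injuries (-1.22 and -1.13) and Fcrls higher (1.51 and 1.61). The part of any of these in the lysosomal values was not tested.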

How the data were processed

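RNA was extracted from sorted cells, and libraries were prepared from small amounts of RNA with Clontech SMARTer Ultra Low and Illumina Nextera protocols. Per the labels and the study's methods, the authors aligned reads to mm10 (GRCm38) with TopHat2 2.0.9, counted them per gene with HTSeq 0.5.4p3 and normalised by library size in edgeR 3.3.6. Whether counting used strand is not given in the sources used here. The deposited values are a normalised signal, counts scaled by effective library size (CPM), and all 336200 were whole multiples of what 1 read is worth (100%, tolerance 0.001 reads), so that whole reads could be recovered. The 51 members and the further lists were chosen with earlier results of these data known.

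Values were analysed as log2(CPM + 0.5) with limma 3.58.1 (R 4.3.3), fitting 1 mean for each of the 7 groups over all 20 samples, with a trend of the variance on intensity, and p-values were adjusted by Benjamini-Hochberg over 16810 genes. Fold changes are on that scale and understate the change of low genes. Comparisons were 6 with NI, 3 of FT with HS and 6 between times. Values in every sample are given for Lamp1, Lamp2, Cd68, Psap, Grn, genes DE in all 6 comparisons with NI and the DE gene with the largest rise and fall of each role. Genes of other lists are named where DE in at least 4 of 6 comparisons and largest in their list. Alternatives were 0.1 or 1 CPM added, a filter of 1 CPM in 2 samples, fits of the 2 groups alone, median of ratios, quantile normalization, scaling to 1 total, no fold limit, a replicate block, each sample left out, and count tests of the recovered reads (edgeR 4.0.16, DESeq2 1.42.0). Coordinates and exon lengths are from GENCODE vM21 on GRCm38. The fit was tested on simulated data.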

Additional observations from a re-analysis of the deposited data

Results flagged for a closer look

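Differences between times within an injury that passed the test of the difference itself (limma, adjusted p under 0.05 and at least 2-fold) concerned 3 genes. Atp6v0d2 was higher after HS at 1 week than at 72 h by 1.234 on the log2 scale and at 2 weeks than at 72 h by 2.331, and after FT by 1.203 at 1 week and 1.777 at 2 weeks. Gusb at 1 week after HS differed from 72 h by -1.204 and at 2 weeks by -1.007. Galns at 1 week after FT differed from 72 h by -1.171. No gene moved in opposite directions after FT and HS in all samples of a time. Groups held 2 or 3 samples, too few for a test of single outlying samples.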

How the results depend on the processing

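Of 74 single-gene calls, 67 against NI and 7 between times, 46 ended under quantile normalization and 45 with columns scaled to 1 total, and 0 turned in direction under any alternative. Fits of the 2 groups alone ended 6, 1 CPM added, DESeq2 and the replicate block 1 each, and 0.1 CPM added, the filter, median of ratios and both edgeR tests 0. Counts of DE genes against NI under quantile normalization were 6 (5 higher, 1 lower), 2 and 3 after HS and 6, 4 and 4 after FT, and with 1 total 7 (5 and 2), 2 and 3 after HS and 8 (6 and 2), 4 (3 and 1) and 7 (5 and 2) after FT. Without a fold limit they were 6 at 1 week after HS and 25, 17 and 19 after FT. DESeq2 called 5 at 1 week after HS. Between 72 h and 1 week after HS 1 gene was DE with 1 CPM added, 0 under quantile normalization, 4 without a fold limit and 1 by DESeq2. Between 72 h and 2 weeks after HS it was 1 under both scalings and 4 without a fold limit. After FT it was 0 in fits of the 2 groups alone for 1 week and 3 without a fold limit for 2 weeks.

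With each sample left out in turn the counts against NI ran from 11 to 18, 1 to 3 and 8 to 11 after HS and from 13 to 16, 6 to 14 and 10 to 13 after FT. The lowest were without HS 72 h replicate 2, HS 1 week replicate 1 and FT 1 week replicate 3, and the 14 without FT 1 week replicate 1. Between 72 h and later times they ran from 0 to 2 and 1 to 2 after HS and from 1 to 3 and 1 to 2 after FT, and FT against HS gave 0 throughout.

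The median log2 difference of the 51 genes changed sign in 3 comparisons without NI: FT against HS at 72 h from 0.05 to between -0.0029 and 0.11 with samples left out (below 0 without HS 72 h replicate 3), HS 2 weeks against 72 h from -0.10 to 0.077 and 0.083 under the quantile and 1 total scalings, and FT 2 weeks against 1 week from 0.08 to between -0.13 and 0.19 with samples left out (below 0 without FT 1 week replicate 1). The cause was not tested. Same-numbered samples did not deviate together (20 of 57 correlations over 0.1, median -0.0017, and 8 of 20 samples closest to their own number), so the numbers were not read as pairs. With the replicate block the counts against NI, in order of time, came to 17, 3 and 11 with HS and 14, 11 and 11 with FT, but not of the same genes, since the call of Grn at 1 week after HS ended. Depth limits genes near 1 CPM.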
